A study of Mus musculus with 2 samples.

Results

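The small leucine-rich proteoglycans (SLRPs) were examined in the single-cell RNA sequencing of costal-cartilage-derived stem cells (CDSCs), as 10 genes of the 21849 listed in the files. They were found by gene symbol: Dcn, Bgn and Aspn of class I, Fmod, Lum, Prelp, Kera and Omd of class II, and Epyc and Ogn of class III. The data were 1 library of primary and 1 library of cultured CDSCs, grouped by the treatment label. Per the study's methods, both came from rib cartilage of C57BL/6J mice within a week of birth, carrying either CD45.1 or ZsGreen, which was digested with enzymes and sorted for CD45-CD51+ cells, although the tissue label reads bone marrow. Cultured cells had been grown in serum-containing medium to passages 2 to 3. How many animals were pooled was not given in the sources used here.

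SLRPs are secreted proteins built on a horseshoe of leucine-rich repeats, and most carry chondroitin, dermatan or keratan sulfate chains. They bind the surface of collagen fibrils and set how thick and how regularly spaced the fibrils become, and they also hold growth factors such as TGF-beta in the matrix. Cartilage, tendon, bone and cornea each make their own mixture of them. Class membership follows the protein sequence, and members of different classes lie side by side in a few gene clusters.

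After barcodes with fewer than 500 genes, fewer than 1000 UMIs (unique molecular identifiers, each 1 captured transcript) or more than 10% mitochondrial UMIs were left out, 11746 primary and 5338 cultured cells remained, with a median of 10026.5 and 56864.5 UMIs per cell. The summed counts came to 137148874 and 330129909 UMIs, and counting error mattered for rare members only. With 1 library per group no test was possible, and every interval below, at 95%, covers counting error only. Animal, preparation and sequencing run cannot be told apart from culture. The libraries also differed in origin. The Y-linked gene Kdm5d had 2 primary and 4629 cultured UMIs, and ZsGreen had 60957 and 0. Bgn lies on the X chromosome, and the part of the animals' sex in its level was not tested. Of the deposited barcodes 32 were shared between the libraries, 15 of them among the kept cells. The sort gene Itgav (CD51) was at 92.5 and 109 CPM (counts scaled to a library total of 1000000 UMIs), and Ptprc (CD45) at 0.620 and 0.345 CPM. All 12 chondrocyte markers had at least 10 CPM in the primary library, with a summed level of 87870 CPM. In the cultured library 3 of 12 did, with a sum of 1036 CPM.

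Of the 10 genes, 9 lie in 3 clusters (GENCODE M21, GRCm38). Prelp (chr1:133910304-133921414, minus strand) and Fmod (chr1:134037254-134048277, plus) are 115.8 kb apart on chromosome 1. Chromosome 10 holds Dcn (chr10:97479609-97518143), Lum (chr10:97565128-97572703), Kera (chr10:97606879-97613692) and Epyc (chr10:97644068-97682454), all on the plus strand. On chromosome 13, Aspn (chr13:49544443-49567565), Omd (chr13:49582462-49592822) and Ogn (chr13:49608046-49624501) follow each other on the plus strand with gaps of 14.9 and 15.2 kb. Bgn is at chrX:73483602-73495933 on the plus strand. The 3 genes of chromosome 13 lie within Cenpp, a centromere protein gene on the opposite strand, which was itself at 19.7 and 22.5 CPM. Prelp and Epyc overlap noncoding genes on the opposite strand that the files do not list, and whether counting used the strand was not given in the sources used here.

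Promoters from RefSeq (GRCm38.p6) were matched for 8 of the 10 genes, and the 250 bases before the start were searched on both strands for a TATA box (TATAAA), a SOX core (AACAAT, the element that SOX9, the chondrocyte master factor, can bind) and an AP-1 site (TGANTCA). The 3 neighbours of chromosome 13 are shown because their levels differed most within 1 cluster, and Epyc because its level differed most of all. Capitals mark a match, written as it reads on the strand of the gene. The windows are chr13:49544193-49544442 for Aspn, chr13:49582212-49582461 for Omd, chr13:49607765-49608014 for Ogn and chr10:97643818-97644067 for Epyc, all on the plus strand.
Aspn: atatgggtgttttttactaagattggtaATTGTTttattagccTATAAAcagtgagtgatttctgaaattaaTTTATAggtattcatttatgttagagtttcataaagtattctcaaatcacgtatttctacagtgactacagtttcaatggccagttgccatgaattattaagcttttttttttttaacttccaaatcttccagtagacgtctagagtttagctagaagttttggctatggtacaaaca
Omd: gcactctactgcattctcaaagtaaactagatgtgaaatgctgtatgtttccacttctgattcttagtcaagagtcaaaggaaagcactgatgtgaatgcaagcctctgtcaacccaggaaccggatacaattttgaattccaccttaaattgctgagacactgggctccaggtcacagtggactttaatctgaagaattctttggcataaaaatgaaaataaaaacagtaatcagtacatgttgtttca
Ogn: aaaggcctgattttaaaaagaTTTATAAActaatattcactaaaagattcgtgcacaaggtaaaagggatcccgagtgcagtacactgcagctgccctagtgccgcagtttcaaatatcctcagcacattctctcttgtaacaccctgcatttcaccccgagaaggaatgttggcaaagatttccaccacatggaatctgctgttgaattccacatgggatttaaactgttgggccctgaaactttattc
Epyc: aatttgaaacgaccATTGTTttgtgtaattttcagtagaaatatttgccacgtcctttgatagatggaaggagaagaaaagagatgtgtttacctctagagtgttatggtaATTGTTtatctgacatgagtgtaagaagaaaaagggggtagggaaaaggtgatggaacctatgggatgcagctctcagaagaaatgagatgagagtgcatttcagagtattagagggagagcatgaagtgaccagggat
Epyc held 2 SOX cores, both as ATTGTT, and Aspn held 1. Of the windows not shown, a second start of Epyc (chr10:97646853-97647102) held 3, Kera 2 and Prelp 1, so 4 of the 8 matched genes had the element. Aspn held a TATA box on each strand, and in Ogn the matches of both strands overlapped in a single run of TTTATAAA. The Omd window held 0 matches to the 3 motifs. Among all 32851 promoters of the table, a SOX core was found in 9.42%, a TATA box in 12.37% and an AP-1 site in 6.75%. A match describes letters, not a bound site, and the windows of Bgn and Fmod held 0 matches.

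In sum over the 10 genes, SLRP transcripts were a smaller share of the cultured library. They made up 10982 CPM or 1.10% of the primary UMIs and 2462 CPM or 0.246% of the cultured UMIs, for a log2 ratio of -2.16 (-2.16 to -2.15). Of the 10 genes 8 were lower in the cultured library, against 35.5% of the 9115 genes that reached 10 CPM in one library or the other. At least 4-fold lower were 6 of them (Dcn, Fmod, Lum, Kera, Omd and Epyc), against 5.73% of those genes. Only Ogn was at least 4-fold higher, against 10.6%. The median log2 ratio was -4.71 over the members, with Kera at its bound, and 0.37 over the 9115 genes. With members under 10 CPM in both libraries left out, as for the 9115 genes, Kera is removed. Then 5 of 9 were at least 4-fold lower, and the median log2 ratio was that of Dcn, -4.39. Cultured cells held more UMIs each, and on the scale of UMIs per cell without scaling the sum was 128 in primary and 152 in cultured cells.

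**Figure D1:**
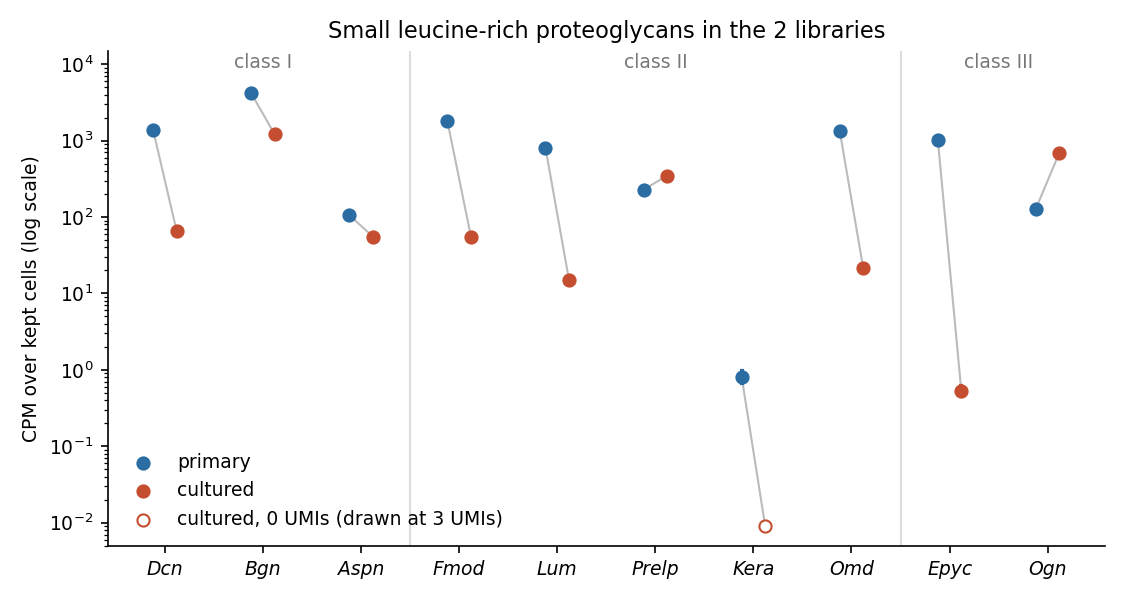
Level of each small leucine-rich proteoglycan in the 2 libraries, as CPM over all kept cells on a log axis, with exact Poisson intervals that are mostly narrower than the points; Kera had 0 cultured UMIs and is drawn at 3 UMIs. Every cultured point lies below its primary point except those of Prelp and Ogn.

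Class I held the most abundant member of both libraries. Bgn encodes biglycan, which binds collagen fibrils and, once released, the receptors TLR2 and TLR4. Its level was 4164 CPM in primary and 1204 CPM in cultured cells, which gives a log2 ratio of -1.79 (-1.80 to -1.78). Its share of all SLRP UMIs was 37.9% and 48.9%. Unscaled, cultured cells held more Bgn, with 74.4 against 48.6 UMIs per cell. Dcn encodes decorin, which decorates type I and type II collagen fibrils and binds TGF-beta. It stood at 1375 CPM in primary and 65.5 CPM in cultured cells, 21.0-fold lower at a log2 ratio of -4.39 (-4.41 to -4.37). Aspn encodes asporin, a relative of decorin that binds collagen and calcium and lacks the usual sugar chain. It stood at 106 and 55.4 CPM, a log2 ratio of -0.94 (-0.97 to -0.91), and per cell it was higher in culture, with 1.24 and 3.43 UMIs. Bgn and Dcn, which are close relatives, thus differed by very unequal factors between the libraries.

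Class II held 4 of the 6 genes that were at least 4-fold lower and 1 of the 2 that were higher. Fmod encodes fibromodulin, a keratan sulfate proteoglycan that guides collagen fibril maturation in tendon and cartilage. It was second in the primary library at 1806 CPM and reached 55.6 CPM in cultured cells, a log2 ratio of -5.02 and a 32.5-fold difference. Lum encodes lumican, which keeps corneal collagen fibrils evenly spaced. Its level was 805 CPM in primary cells and 53.6-fold lower in cultured cells (14.6 to 15.4 CPM), at a log2 ratio of -5.74 (-5.79 to -5.70). Omd encodes osteomodulin, an acidic member first known from bone. With 1339.9 CPM in primary and 21.2 CPM in cultured cells it was 63.1-fold lower, a log2 ratio of -5.98 (-6.01 to -5.95).

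The other two of class II lay at opposite ends. Prelp encodes prolargin, whose basic N-terminal stretch binds heparan sulfate and which links basement membranes to the matrix beneath. It was higher in the cultured library, at 227 and 349 CPM, a log2 ratio of 0.62 (0.60 to 0.64). That is close to the 0.37 that was the median of all 9115 genes, and per cell it was 2.65 and 21.6 UMIs. Kera encodes keratocan, best known from the cornea, and was nearly absent: 111 UMIs in primary cells (0.809 CPM, 0.666 to 0.975) and 0 in cultured cells, at least 89.1-fold lower when 3 UMIs over the whole library are taken as the limit that 0 allows.

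The 2 members of class III moved apart the most. Epyc encodes epiphycan, a proteoglycan of growth plate cartilage. Primary cells held 1029.6 CPM of it (141207 UMIs) and cultured cells 0.524 CPM (0.449 to 0.608; 173 UMIs), a log2 ratio of -10.94 (-11.16 to -10.73). Ogn encodes osteoglycin, also called mimecan, a widely made member with short forms that lack sugar chains. It was the 8th most abundant member in the primary library at 129 CPM and the second of cultured cells at 695 CPM, with a log2 ratio of 2.43 (2.41 to 2.45). Its share of all SLRP UMIs was 1.17% in primary and 28.3% in cultured cells.

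The order of the members therefore differed between the libraries. From the highest level it ran Bgn, Fmod, Dcn, Omd, Epyc, Lum, Prelp, Ogn, Aspn and Kera in the primary library, with no overlap between the counting intervals of neighbours. In the cultured library it ran Bgn, Ogn, Prelp, Dcn, Fmod, Aspn, Omd, Lum, Epyc and Kera. There the intervals of Fmod (54.8 to 56.4 CPM) and Aspn (54.6 to 56.2 CPM) overlapped, and the others did not. The assay counts 1 end of each transcript, so these CPM levels were not scaled by length, but capture may differ between genes and was not estimated.

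Neighbouring genes differed in direction on chromosomes 1 and 13, but not on chromosome 10. On chromosome 13, Ogn was higher in the cultured library (log2 ratio 2.43) while Omd, 15.2 kb before it, was lower (-5.98), as were Aspn (-0.94) and Ecm2 (-5.24), a related leucine-rich gene at the start of that cluster, which was at 142 and 3.75 CPM. On chromosome 1, Prelp had a log2 ratio of 0.62 and Fmod of -5.02. Optc (opticin), 2.3 kb from Prelp, was rare, with 1.37 and 2.99 CPM. All 4 members on chromosome 10 were lower, from -4.39 for Dcn to -10.94 for Epyc.

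**Figure D2:**
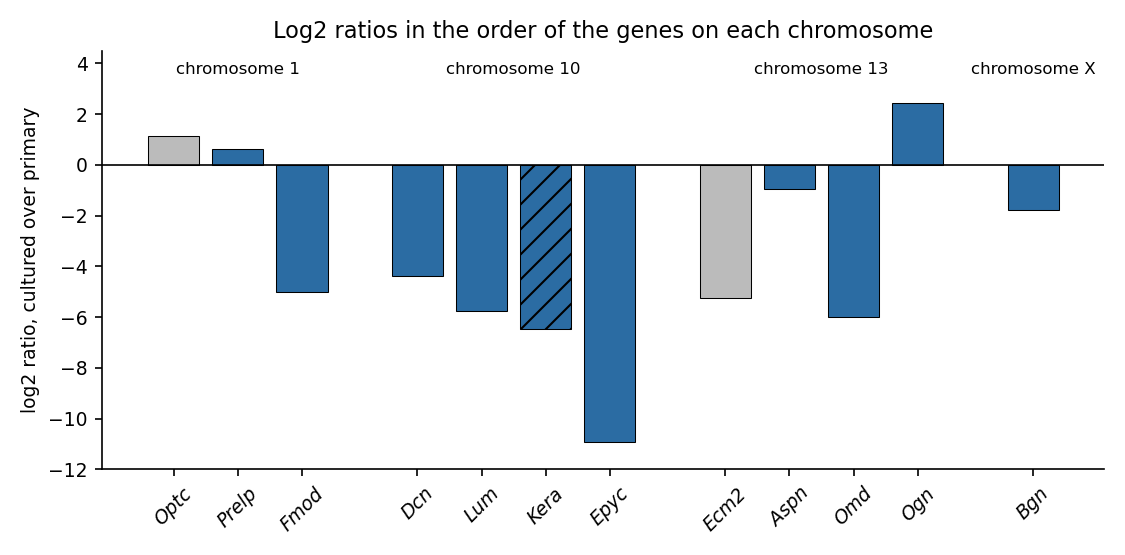
Log2 ratio (cultured over primary CPM) of each member in blue and of the related genes Optc and Ecm2 in grey, in the order of the genes on each chromosome; the hatched bar of Kera is a bound at 3 cultured UMIs. Bars on both sides of 0 stand next to each other on chromosomes 1 and 13, and all 4 bars on chromosome 10 lie below 0.

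Per cell, the comparison was made at equal depth by drawing 5000 UMIs from each cell, which left 10959 primary and 4543 cultured cells and leaves out 787 and 795 shallower ones. The median primary cell then held UMIs of 7 of the 10 genes (10th to 90th percentile 6 to 8), and the median cultured cell of 3 (2 to 5). At least 7 members were found in 69.3% of primary and 0.352% of cultured cells. The summed SLRP count had a median of 55 UMIs (38 to 75) in primary and 12 (5 to 22) in cultured cells. Cells with no SLRP UMI at all numbered 2 and 17. The lower sum in culture was thus seen across the cells, and not in a subset alone.

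Detection of the single genes followed their levels. Bgn was found in 99.95% of primary and 97.8% of cultured cells, so that nearly every cell of both libraries held it at this depth. Dcn was found in 96.0% of primary cells (95.7% to 96.4%) and, with 818 of 4543, in 16.9% to 19.2% of cultured ones. The shares were 99.3% and 18.2% for Fmod, 94.6% and 5.61% for Lum, 93.6% and 10.6% for Omd, and 92.1% and 0.352% for Epyc. These 5 genes were thus found in over 9 in 10 primary cells and in a minority of cultured ones. Ogn went the other way, with 38.9% of primary cells (38.0% to 39.8%) and 78.4% of cultured cells (77.1% to 79.6%). Prelp was found in 56.8% and 63.6%, and Aspn in 23.8% and 19.6%. Kera was found in 23 of 10959 primary and 0 of 4543 cultured cells. A count of 0 allows a cultured share of up to 0.0660% taken as 3 cells, or 0.0812% by the exact interval, and this limits cells with a UMI, not cells that express the gene. Without thinning, the cultured shares were higher, at 55.4% for Dcn, 51.6% for Fmod, 22.3% for Lum, 41.7% for Omd, 49.3% for Aspn and 90.5% for Ogn, against 97.4%, 99.4%, 97.7%, 95.8%, 35.5% and 57.4% of primary cells. The order of the libraries for Aspn thus depended on the depth.

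Free RNA in droplets can give UMIs in cells that do not make a gene, so the shares were also taken in endothelial-like and haematopoietic-like cells. Whether these cells make any SLRP themselves was not tested. Bgn was at 2193 CPM in the endothelial-like primary cells and at 462 CPM in the haematopoietic-like cultured cells. The 25 endothelial-like primary cells had a median of 10273 UMIs, against 10076 in chondrocyte-like cells. Of the 17 that could be thinned, 9 held Dcn, 9 Fmod, 10 Lum, 9 Omd and 10 Epyc, shares of 52.9% and 58.8%, which in each case lie below the chondrocyte-like share. Their CPM was below that of the chondrocyte-like cells for 8 of the 10 genes beyond the counting interval, and inside it for Kera (0 UMIs) and Aspn (77.0 CPM, 48.2 to 116.5, against 86.5 CPM). Their Col2a1 level was 26808 CPM, and the part of free RNA and of mixed droplets in these values was not tested. The 16 haematopoietic-like cultured cells had a median of 24060.5 UMIs. Of the 12 that could be thinned, 2 held Ogn (16.7%, 2.09% to 48.4%), 2 held Dcn and 1 held Lum, so the cultured share of Ogn was above the interval of these cells, while the shares of Dcn and Lum fell within their intervals, which are wide for so few cells. In CPM, all 16 cells were at 197 for Ogn against 695 in the library and at 12.4 (4.57 to 27.1) for Dcn against 65.5. For Lum they were at 2.07 (0.0525 to 11.6), also below the library. The part of free RNA in the cultured shares was not tested. Fmod was at 104 CPM (76.9 to 137) in these 16 cells, but only 12.5% of them held it before thinning, against 51.6% of all cultured cells. After thinning the shares were 8.33% and 18.2%.

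**Figure D3:**
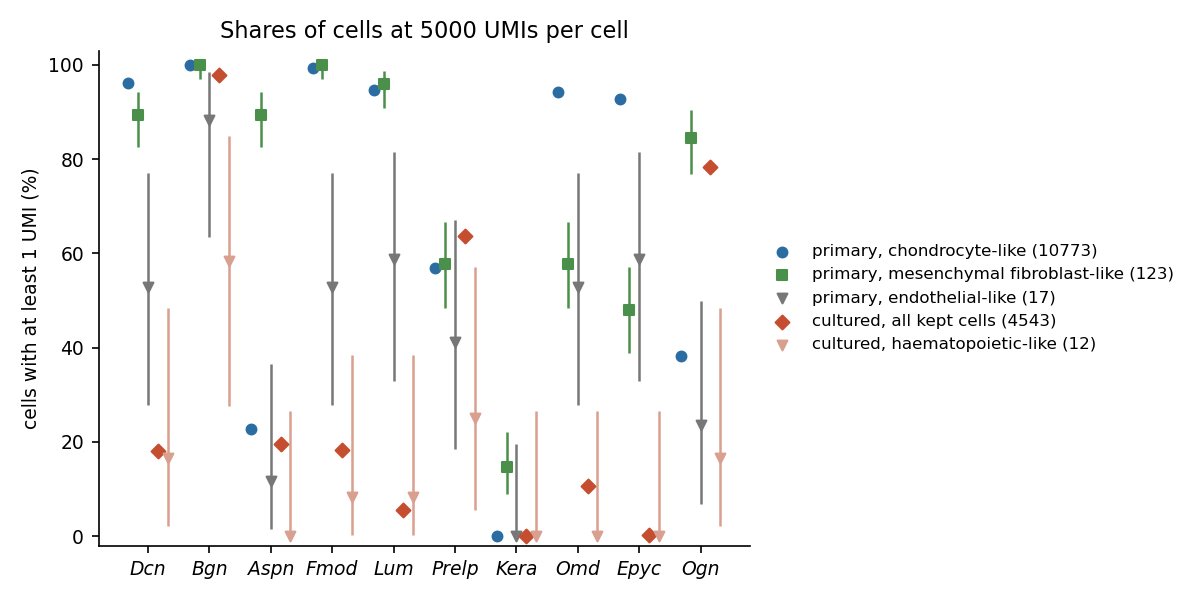
Percent of cells with at least 1 UMI of each member after thinning to 5000 UMIs per cell, with exact binomial intervals, in 3 cell classes of the primary library and in all or only the haematopoietic-like cultured cells; numbers of thinned cells are in the key. Dcn, Fmod, Lum, Omd and Epyc sit above 92% in the primary chondrocyte-like cells and at or below 18.2% in cultured cells, and Ogn shows the opposite order.

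Within the primary library, the cells were clustered without the 10 genes, and 8 of 16 clusters, with 11457 of the 11746 cells, were chondrocyte-like. Among these 8 clusters Ogn, Prelp and Aspn varied most. Prelp ranged 9.06-fold, from 60.9 CPM in cluster 3 to 552 CPM in cluster 4, and Ogn 9.75-fold, from 27.8 CPM in the dividing cells of cluster 7 to 270.5 CPM in cluster 4. Cluster 4 (1921 cells, led by Tll1, Clu, Cilp2 and Prg4, which encodes the lubricant of the joint surface) also had the highest Fmod (2900 CPM), Dcn (1774 CPM) and Omd (1661 CPM). Its Epyc, at 409 CPM, was the lowest of the 8, and the range of Epyc was 4.10-fold. Aspn ranged 5.11-fold, from 29.2 CPM in cluster 6 to 149 CPM in cluster 8. Cluster 3 (2125 cells, with Acta2 and Grem1 among its leading genes) had the highest Epyc, at 1677 CPM, and 68770 CPM of Col2a1 against 30443 CPM in cluster 4. Clusters 6 and 7 were low in several members. Cluster 6, led by genes that include Wnt5b, Runx3 and Ptch1, had the lowest Bgn (2658 CPM), Dcn (719 CPM) and Fmod (1333 CPM), and cluster 7, led by mitotic genes, had the lowest Lum (588 CPM) and Omd (480 CPM). Lum varied least, by 1.64-fold, and Bgn by 1.97-fold.

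Prelp, Fmod and Epyc were also compared across single primary cells. Across 10959 thinned cells, which share 1 library and 1 depth, Spearman's rho was -0.36 between Prelp and Epyc and -0.26 between Fmod and Epyc, and 0.35 between Fmod and Prelp. A Prelp UMI was found in 57.0% of the 10878 cells with Fmod and in 35.8% of those without, which were only 81 cells. These are descriptions of sparse counts, and none was tested.

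Cells outside the chondrocyte-like clusters were few but carried some of the rarer members. They were 2.46% of the cells and 1.91% of the UMIs of the primary library. They gave 95.5% of the Kera UMIs (106 of 111; 89.8% to 98.5%), 20.1% of the Aspn UMIs and 9.07% of the Ogn UMIs, but 0.895% of the Epyc and 0.900% of the Omd UMIs. Clustered without presumed doublets, these last shares were 0.159% and 0.248%, and with 30 principal components 2.14% and 2.00%. Of the 5 mesenchymal fibroblast-like clusters (191 cells), clusters 13 and 16 were 87.5% and 100% presumed doublets, and their Col2a1 levels were 38958 and 43171 CPM. The presumed doublets are therefore left out of what follows, by an alternative chosen after the data were seen.

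The remaining 138 fibroblast-like cells differed from the chondrocyte-like cells mainly in 5 of the 10 genes. Aspn was at 1587 CPM in them and 86.4 CPM in the 10417 chondrocyte-like cells that were not presumed doublets, 18.4-fold higher (log2 ratio 4.11 to 4.28). Ogn was at 1165 and 119 CPM, 9.75-fold higher. Kera was at 86.3 CPM (67.3 to 109) against 0.0434 CPM, from 70 and 5 UMIs. Omd was 7.84-fold lower, at 173 and 1354 CPM, and Epyc 9.96-fold lower, at 104 and 1032 CPM. Col2a1 itself was 10.8-fold lower in these cells, at 4937 and 53186 CPM, so Omd and Epyc were lower by factors near that of a chondrocyte gene. Cluster 13, with 28 presumed doublets among 32 cells, left its other cells in this group. They gave most of the group's pooled Omd, Epyc and Col2a1 UMIs. In clusters 9, 10 and 12, with all their cells, Omd was at 37.7, 96.7 and 159 CPM and Epyc at 20.6, 55.3 and 67.2 CPM. Col2a1 there was at 1481, 2487 and 2876 CPM. Dcn (1439 and 1362 CPM), Bgn, Fmod and Prelp differed by less than 1.5-fold, and Lum was 2.35-fold higher. An unnamed cluster of 42 cells, led by the mast cell genes Tpsb2, Mcpt4, Cma1 and Cpa3 but holding 7 fibroblast markers, had the highest Aspn of all clusters, at 3956 CPM (3673 to 4255), with Ogn at 1302 CPM.

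**Figure D4:**
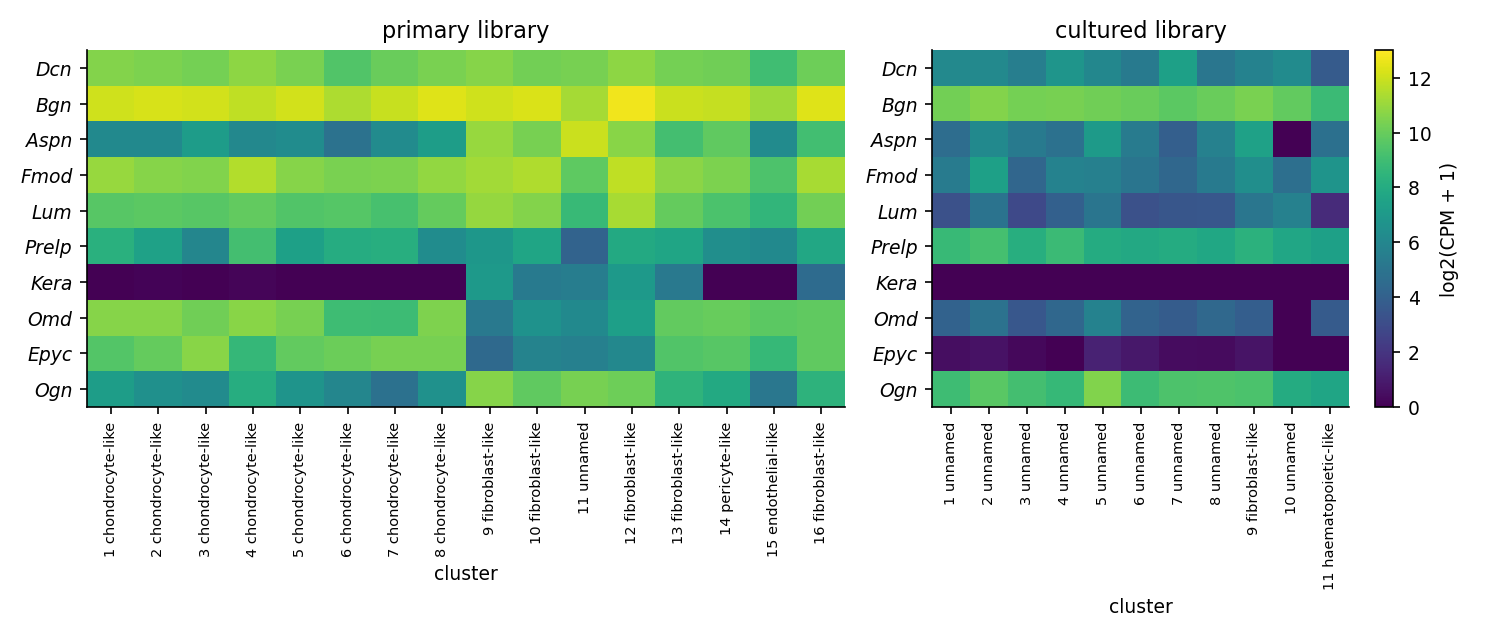
Level of each member in each cluster of the primary (left) and cultured (right) library, as log2(CPM + 1) by colour. Kera is above 20 CPM only in the fibroblast-like clusters and the unnamed cluster 11 of the primary library, where Aspn and Ogn are also high, and Epyc is dark in every cultured cluster.

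The direction for Ogn depended on which primary cells were compared. Against the whole primary library or its chondrocyte-like clusters alone, Ogn was higher in culture, with log2 ratios of 2.43 and 2.54. Against the 138 fibroblast-like cells it was lower, at -0.74, and with their presumed doublets included it was -0.10. Aspn moved from -0.94 against the whole library to -4.84 against these cells. Epyc was at -7.63 and Omd at -3.02, values that rest for the most part on the few cells left from cluster 13. Of 84 Epyc and 140 Omd UMIs in the 138 cells, the other clusters gave the minority. With all their cells, clusters 9, 10 and 12 held 6, 16 and 11 Epyc and 11, 28 and 26 Omd UMIs. Dcn, Fmod and Lum, at -4.46, -5.59 and -6.97, stayed far below 0, and Prelp stayed above 0, at 0.96.

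**Figure D5:**
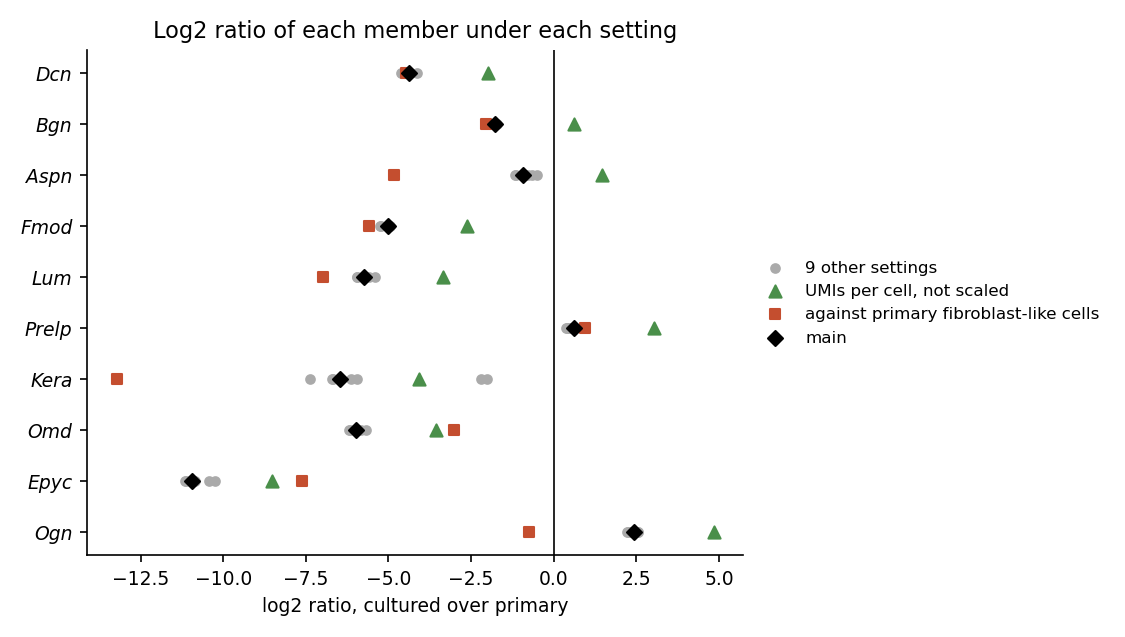
Log2 ratio (cultured over primary) of each member under the main setting, 9 other settings of filter, scaling and cells, unscaled UMIs per cell, and against the 138 primary fibroblast-like cells that were not presumed doublets. Bgn and Aspn cross 0 on the scale of UMIs per cell, Ogn crosses 0 against fibroblast-like cells, and the other 7 keep their side in every setting shown.

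Cultured cells fell into 11 clusters, of which 9 remained unnamed, because none of the fixed cell type lists was met. Clusters 4 and 10 were shallow, at a median of 1204 and 1239.5 UMIs per cell, and are left out of the ranges. Ogn ranged from 474 CPM in cluster 6 upward outside the 16 haematopoietic-like cells, and was highest in cluster 5 (635 cells, led by Cytl1 and Gpc3), at 1491 CPM. Cluster 5 also had the highest cultured Omd, at 53.2 CPM, and 135 CPM of Aspn. Prelp and Fmod were both highest in cluster 2 (796 cells, led by Mmp13 and with Comp, a cartilage and tendon matrix gene, among its leading genes), at 565 and 167 CPM. Dcn was highest in cluster 7 (327 cells, led by Nr5a2 and Barx1), at 166 CPM, where Aspn was lowest, at 14.3 CPM. The fibroblast-like cluster 9 (187 cells) had the highest Aspn, at 174 CPM. Epyc did not pass 1.35 CPM in any of them. These ranges widened with finer clusters. At resolution 1.0 the lowest cultured cluster held 252.9 CPM of Ogn, and the highest over the lowest level went from 5.24-fold to 17.5-fold for Lum.

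The members that were low in culture were also unevenly spread over the cells. At 5000 UMIs per cell, the 45 cultured cells with the most Dcn, the top 1% by number, held 25.4% of all Dcn UMIs. In the primary library it took the top 10% of cells to hold a like share, 25.1%. A single cultured cell held up to 41 Dcn UMIs, close to the primary maximum of 45, while the median cultured cell held 0. The top 1% held 40.7% of the Lum and 19.9% of the Fmod UMIs. With so few UMIs per cell, a large top share is partly set by the low level itself. Bgn was spread more evenly, at 3.04%, and Ogn stood at 6.39%. Cultured cells often held Aspn and Ogn together. Of the cultured cells with an Aspn UMI, 94.5% also held Ogn, against 74.4% of those without, and Spearman's rho over the 4543 cells was 0.32.

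The genes most like a member in their levels across clusters were named by Pearson's r of log2(CPM + 1) over the 16 primary or the 10 cultured clusters of at least 20 cells, which share a library and include clusters of presumed doublets. Epyc was most like Chadl, Ucma and Col2a1 (r = 0.99 each), 3 cartilage genes. Omd was most like Ncmap, Zfp385b and Col9a1 (0.95 each). Aspn was most like Bicc1, Fstl1 and Col3a1 (0.96, 0.94 and 0.93), the last a fibroblast collagen. Lum was led by Itm2a (0.97), Fmod by Fxyd1 (0.93), Dcn by Mrc2 (0.85) and Bgn by Pdgfrl (0.84). In the cultured library, Ogn was led by Ak5 (0.91) and Prelp by Rabac1 (0.89). The 10 cultured clusters include the shallow clusters 4 and 10, and cluster 10 held only 10 Ogn and 8 Prelp UMIs. No test was made of these values.

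The genes that act with SLRPs were taken from 6 lists, and those of their genes that reached 100 CPM in one library or the other are named. Enzymes of chondroitin and dermatan sulfate chains were mostly lower in culture. Of the 19 with at least 10 CPM, 14 were lower and 5 higher, where 35.5% of all 9115 genes were lower, and the median log2 ratio was -1.03 against 0.37. Xylt1, which starts the chain on the core protein, was at 1155 and 156 CPM, a log2 ratio of -2.88. Chsy3, a chain polymerase, was at 623 and 62.0 CPM, and Chst11, a chondroitin 4-O-sulfotransferase, at 504 CPM in primary cells had a log2 ratio of -2.49. Csgalnact1, which commits the chain to chondroitin, was at 224 and 110.3 CPM. Chsy1, a further polymerase, was at 138 and 37.0 CPM, and Ust, a uronyl 2-O-sulfotransferase, at 122 and 23.6 CPM. Dse, which turns chondroitin into dermatan sulfate, was higher, at 51.6 and 135 CPM. Dsel and Chst14, which also act in dermatan sulfate synthesis, were higher too, at 14.9 and 29.9 and at 4.40 and 14.7 CPM. Both are named although under 100 CPM. Of the 8 keratan sulfate enzymes only 2 reached 10 CPM. Both were higher in culture, where 35.5% of all 9115 genes were lower, and neither reached 100 CPM. The others of that list went both ways, so no direction for keratan sulfate synthesis is read from it.

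Of the 13 collagens that SLRPs bind or accompany, 9 were lower and 4 higher, with a median of -0.74, beside the 35.5% of all genes that were lower. Col2a1, the main fibril collagen of cartilage, was at 53269 and 490 CPM (-6.76), Col11a1 at 6846 and 446 CPM, and Col11a2 at 2966 and 1.32 CPM. The fibril collagens of soft tissue and bone went both ways. Col1a1 was higher in culture, at 149 and 705 CPM (2.24), as were Col5a1, at 54.1 and 138 CPM, and Col5a2, at 36.5 and 1005 CPM (4.78), while Col1a2 was lower, at 691 and 187 CPM. Col3a1 was at 112 and 151 CPM, and Col12a1, which sits on fibril surfaces, at 249.9 and 170.0 CPM. The type VI chains were all lower, with Col6a1 at 392 and 235 CPM, Col6a2 at 220.3 and 100.2 CPM and Col6a3 at 283 and 67.1 CPM.

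Of the 9 proteases and helpers with at least 10 CPM, 6 were higher and 3 lower in culture, a split near that of all genes, of which 35.5% were lower. The median log2 ratio of this list was 1.21. Adamts5, an aggrecanase that also cuts SLRPs, was at 2.01 and 271 CPM, a log2 ratio of 7.08, and Adamts1 at 22.9 and 135 CPM. Pcolce, which speeds procollagen processing, was at 51.2 and 291 CPM. Mmp14 was at 73.8 and 153 CPM, and Mmp2 was lower, at 253 and 136 CPM. The list of receptors and ligands held 13 genes with at least 10 CPM, of which 9 were higher and 4 lower, again near the split of all genes, with a median of 0.26 that lies below their 0.37. Egfr and Tgfbr2, receptors whose signalling decorin can dampen, were at 9.83 and 148 CPM and at 45.5 and 312 CPM. Tgfbr3, a co-receptor that was at the list's median, was at 142 and 170.3 CPM. Itgb1 was at 163 and 679 CPM, and Lrp1, which takes up decorin, at 119 and 304 CPM. Of the 8 related leucine-rich genes, 3 reached 10 CPM, all lower in culture. Chad, which encodes chondroadherin, a cartilage protein that binds cells and collagen, went from 1530.2 CPM to 0.0333 CPM (11 UMIs), and Chadl was at 574 and 4.11 CPM.

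Markers of other cells stood as follows beside these results. The mesenchymal fibroblast list, which holds 10 genes and no SLRP, summed to 1062 CPM in primary and 1156 CPM in cultured cells, with 5 genes at 10 CPM or more in each. The smooth muscle and pericyte list summed to 337 and 2559.6 CPM over 8 genes, and the tenocyte list to 2013 and 438 CPM over 6. Endothelial markers (16.6 and 11.3 CPM over 9 genes), haematopoietic (9.35 and 29.8 CPM over 10), mast cell (8.95 and 0.182 CPM over 6) and erythroid markers (5.21 and 2.07 CPM over 6) stayed low, with Hba-a1 at 0.685 and 0 CPM. The osteoblast list summed to 116 and 117 CPM over 8 genes, the Schwann list to 187 and 35.8 CPM over 6 and the skeletal muscle list to 306 and 25.8 CPM over 7. In each library only 1 osteoblast, 1 Schwann and 2 skeletal muscle genes reached 10 CPM. The part of all these other cells in the SLRP levels was not tested.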

How the data were processed

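The members and lists were chosen with earlier results of these data known. Raw counts of UMIs were deposited for each gene and barcode, which the authors had made with Cell Ranger 7.0.0 from 3' libraries without pooling replicates. The submitters' processing notes name mm10, GRCm38 and GRCm39 without a role, and the annotation release was not given in the sources used here. Counts of the kept cells were summed per library, then scaled to CPM. Log2 ratios are cultured over primary CPM with counts under 3 raised to 3. Intervals are exact Poisson, Clopper-Pearson or conditional ones at 95%. No differential test was run with 1 library per group.

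Each library was clustered alone (scanpy 1.11.5, leidenalg 0.10.2) at resolution 0.5 on 20 neighbours and 10 principal components of 2000 variable genes without the members, and clusters of at least 100 cells with markers of several classes were clustered again. A cluster was named X-like from at least 3 markers with 50 CPM and 4-fold excess. It was chondrocyte-like if no class reached that and at least 3 chondrocyte markers had 1000 CPM, a rule that rests on abundance. By its automatic threshold Scrublet called 0 primary and 2 cultured doublets and so had not worked. Doublets were kept in the main values, and the highest scores, 0.8% per 1000 barcodes (1118 and 461 cells), were left out as an alternative. TMM and relative log expression factors came from edgeR 4.0.16. All 10 members are named. Scripts were tested on simulated counts.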

Additional observations from a re-analysis of the deposited data

Results flagged for a closer look

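Apart from the alternative setting that took every deposited barcode, barcodes that failed the cell filter are used in no comparison above. Members were found in them. With no control sample, every member with more UMIs than 0 allows was picked out. In the 150 primary barcodes left out, Bgn was at 1946 CPM, Fmod at 1080.2, Lum at 585, Omd at 562, Dcn at 523 and Epyc at 495 CPM. Aspn stood at 138, Prelp at 128 and Ogn at 71.4 CPM. In the 5460 cultured barcodes left out, of which 5336 had fewer than 1000 UMIs, Bgn was at 1117 CPM, Ogn at 453, Prelp at 388, Dcn at 144 and Fmod at 61.9 CPM. Aspn stood at 52.6, Omd at 16.4, Lum at 15.2 and Epyc at 0.635 CPM. Dcn was thus higher in these cultured barcodes than the 65.5 CPM of the kept cells, and Ogn was lower than their 695 CPM.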

How the results depend on the processing

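No paired analysis was possible because each group was 1 library, and no library could be left out. The counts of members at least 4-fold lower (5 to 8 of 10) and lower (6 to 9) stayed within 1.5 times the main values of 6 and 8 under every alternative. None was at least 4-fold higher against primary fibroblast-like clusters (0, also without presumed doublets), and 2 were in UMIs per cell. These 3 alternatives were chosen after seeing the data. The median log2 ratio of the members, -4.71, was -4.90 under TMM and -4.93 under relative log expression scaling, which moved all genes by -0.20 and -0.22. It was -4.54 with each cell weighing the same, -3.31 with cells thinned, -3.21 against chondrocyte-like clusters, -4.51 against fibroblast-like clusters, -4.65 without their doublets and -2.30 in UMIs per cell. Where Kera has few primary UMIs its bound moves this median. The summed level, at -2.16, was -2.15 under the stricter filter and without presumed doublets, -2.35 under TMM, -2.38 under relative log expression, -2.08 with each cell weighing the same, -2.10 with cells thinned, -2.39 against fibroblast-like clusters and -2.54 without their doublets. In UMIs per cell it reversed to 0.25, as did Bgn (0.61) and Aspn (1.47). Ogn reversed to -0.10 against fibroblast-like clusters and -0.74 without their doublets. With 30 principal components, 3.98% of primary cells lay outside chondrocyte-like clusters, against 2.46%. At resolution 1.0 the spread over cultured clusters moved for 7 members (for example Lum, 5.24-fold to 17.5-fold) and for none in the primary library. The cause of these moves was not tested. Depth limits Kera and cultured Epyc.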
